A study of Bos taurus with 8 samples.

Results

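Of the 43794 probes on the EmbryoGENE cattle array, 22004 carried no gene symbol in the platform annotation used here, and these probes were described in embryos of 2 dairy breeds. They were chosen by the annotation alone, with no measured value, and the other 21790 probes each carried 1 symbol. A probe that the annotation does not name is unnamed here, which does not mean that it lies outside a gene. As background, the array was designed for cattle embryos, and beside known genes it carries probes for transcribed regions seen in early embryos and for alternative forms of transcripts. On day 6 a cattle embryo is between the morula and the early blastocyst, its own genome is already active, and the outer trophectoderm is separating from the inner cell mass. Unnamed transcripts of this stage include long non-coding RNAs, repeat-derived RNAs and untranslated ends of genes. Which of these a given probe reports was not determined, since probe sequences and positions were not used here.

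Holstein embryos, described in the labels as having good cryotolerance, were compared with Jersey embryos, described as performing poorly once frozen. Both were produced in vivo from pooled semen and recovered by uterine flushing at day 6. All donors had been superovulated with 400 mg of follicle-stimulating hormone in total once follicles above 8 mm had been aspirated, and had received 500 µg doses of a prostaglandin analogue. Each of 8 two-colour arrays held RNA of both breeds, with Holstein labelled by Cy5 on 4 of them and by Cy3 on the other 4, spread over 2 slides. The arrays form 4 dye-swap pairs, numbered 1 to 4, with pairs 1 and 2 on slide 1 and pairs 3 and 4 on slide 2. How many embryos or donors make up a replicate is not stated in these sources, and the p-values therefore measure the spread between these samples, which may be technical. In whole embryos, fewer cells of a type and less RNA per cell cannot be told apart.

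Markers of the embryo's own lineages were above background, with 8 of 8 trophectoderm genes and 4 of 4 inner cell mass genes detected, and 3 of 3 primitive endoderm genes on the array. Over the pairs, the mean log2 level of the trophectoderm genes was 10.93 to 11.47 in Holstein and 11.25 to 11.80 in Jersey. Inner cell mass genes lay at 8.73 to 9.66 and 9.01 to 9.30, and primitive endoderm genes at 9.94 to 10.36 and 9.53 to 10.08. Markers of other cell types were detected too, with 4 of 4 genes each for erythrocytes, leukocytes and cumulus or granulosa cells, and 3 of 3 for uterine and oviduct epithelium. Detection alone says little here, since 78.6% of all probes with a symbol were detected in at least 1 breed. The mean log2 level of the 4 erythrocyte genes over the pairs was 7.65 to 7.98 in Holstein and 8.06 to 9.85 in Jersey. For leukocytes it was 7.37 to 7.98 in Holstein and 7.56 to 8.33 in Jersey. Cumulus and granulosa genes lay at 7.23 to 7.90 in Holstein and 7.26 to 7.72 in Jersey, and epithelial genes at 7.15 to 7.70 and 7.19 to 7.52. The part of these cells in the results below was not tested. The number of arrays limits the precision of all values.

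Most probes without a symbol gave signal. A probe counted as detected for a breed when at least 4 of its 8 spots in that breed's channel lay 2 SD or more over the average of the negative controls. By this measure 15893 of the 22004 probes, 72.2%, were detected in at least 1 breed, against 78.6% of the probes with a symbol. Both breeds passed for 14430 probes, 65.6%, Holstein alone for 545, 2.48%, and Jersey alone for 918, 4.17%. Probes with a symbol showed the same order and similar shares of detection in 1 breed. Of these, 489 or 2.24% were detected for Holstein alone and 738 or 3.39% for Jersey alone. A further 6111 probes without a symbol, 27.8%, were detected in neither breed, against 21.4% of those with one. Of the 6111, 2570 were above background in none of the 16 channels. These were 11.7% of all probes without a symbol, against 8.91% of those with one. All 16 channels passed for 6185 probes, 28.1% of those without a symbol, against 40.6% of those with one.

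Detection followed the dye more than the breed. In Cy5, between 42.2% and 59.2% of the probes without a symbol were above background on an array, and in Cy3 between 65.6% and 78.3%, so the dyes did not overlap. Each breed was in Cy3 on 4 arrays, and its detection then exceeded that of the other breed on every one of them. A probe could thus meet the rule of 4 arrays through Cy3 alone. When all 8 arrays had to pass, 35.7% of the probes without a symbol were detected in at least 1 breed. Per breed, detection ran from 42.2% over a median of 62.4% to 72.8% in Holstein, and from 42.4% over 59.0% to 78.3% in Jersey. On each of the 8 arrays and for either breed, a smaller share of unnamed than of named probes was detected.

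**Figure D1:**
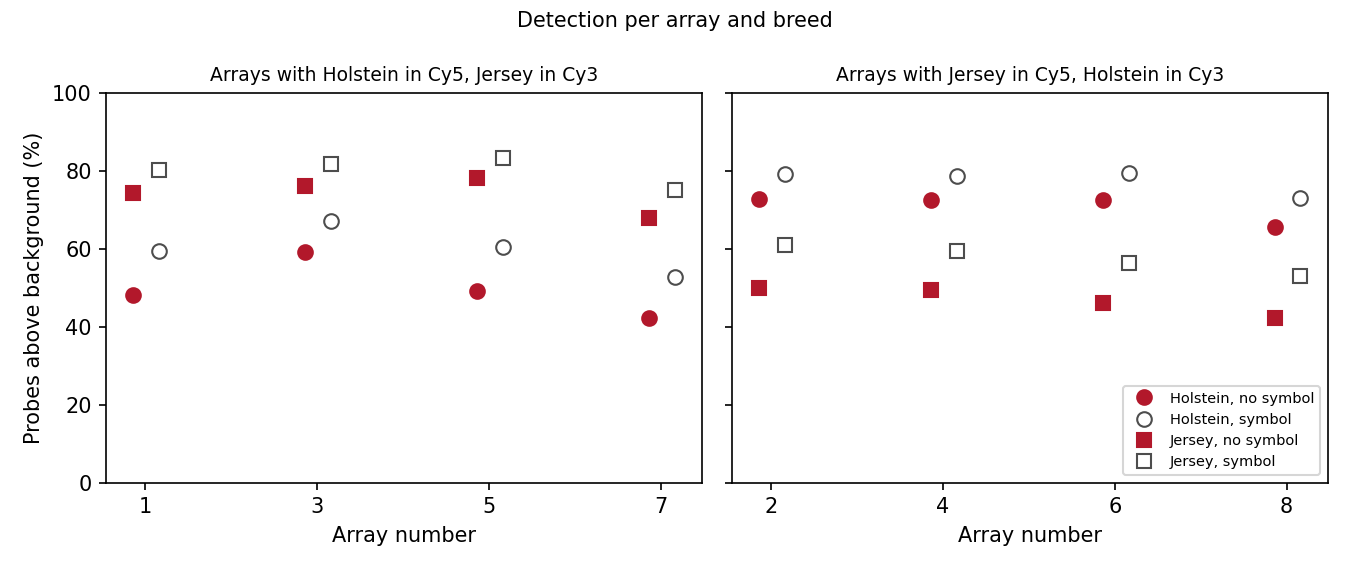
Share of probes above background (y axis, percent) on each array (x axis), with one panel per dye orientation, circles for Holstein and squares for Jersey. Filled red marks are probes without a symbol and open grey marks are probes with one; the breed in Cy3 is above the breed in Cy5 on all 8 arrays, and filled marks lie below open ones.

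Detected probes without a symbol were dimmer than named ones. Their average log2 intensity over channels and arrays ran from 6.68 to 15.27 with a median of 7.52, and its quartiles were 7.26 and 8.58. The median of named probes was 7.88, with quartiles of 7.35 and 9.64. Since dim probes show smaller ratios, named probes were set beside unnamed ones after weighting them to the same intensities in 10 bins. These weighted values are called matched below.

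The 4 brightest unnamed probes were EMBV3_10823, EMBV3_34192, EMBV3_20289 and EMBV3_39761, with average log2 intensities of 15.26 to 15.27. They reached the scanner ceiling on 8, 6, 7 and 6 of the 8 arrays, so their ratios between breeds, which averaged between -0.06 and 0.00, are bounded by saturation. Between 8 and 17 spots of unnamed probes were saturated on an array.

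On pair means, limma found no unnamed probe past an adjusted p of 0.05, and 0% of all 33030 tested probes passed. The smallest adjusted p, 0.0662, belonged to an unnamed probe. Without adjustment, 2008 unnamed probes had p under 0.05. Of these, 790 were higher in Holstein, 4.97% of the 15893 tested, where 6.55% of all tested probes were called in that direction. The other 1218, or 7.66%, were higher in Jersey, where 7.2% of all tested probes were called. Among named probes the order was the opposite, with 1372 higher in Holstein and 1159 in Jersey. At matched intensity these were 6.50% and 5.44%. With median centring in place of loess, the order among unnamed probes turned, to 945 higher in Holstein and 897 in Jersey.

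A fit of the 8 arrays with the pair as a random block, which weighs arrays singly, passed more probes. It called 178 of 15844 unnamed probes higher in Holstein, 1.12%, beside 1.62% of all 32934 probes fitted. In the Jersey direction it called 375, or 2.37%, beside 2.11% of all probes. Named probes at matched intensity gave 1.55% and 1.37%. This fit uses the same arrays as the pair means, so its calls are no separate evidence.

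The typical difference between breeds was small in unnamed probes. Their mean log2(Holstein / Jersey) had a median of 0.00 and quartiles of -0.09 and 0.07. The median size of the ratio was 0.08, and the median SD between pairs was 0.17. The ratio is a mean of 4 pairs and this SD is one of single pairs, so their sizes are not directly comparable. At matched intensity, named probes had a median size of 0.09 and a median SD between pairs of 0.19. The direction was shared by all 4 pairs for 3402 unnamed probes, 21.4%, beside 21.8% of all probes. It was shared by all 8 arrays for 721 of them, or 4.54%, beside 4.89% of all probes and 5.22% of named ones, or 3.99% of named ones at matched intensity.

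The share higher in Holstein was a few percentage points smaller in unnamed than in matched named probes. Of the 15893, 48.5% had a mean ratio above 0, against 53.2% of matched named probes, a difference of -4.71 percentage points in the sign of the ratio averaged over pairs. Taken in each pair by itself, the difference was -2.62 points in pair 1, -2.52 in pair 2, -5.13 in pair 3 and -2.22 in pair 4, with an SD of 1.35 between these 4 values. It was smaller than -4.71 in size in 3 of the 4 pairs. It was below 0 on all 8 arrays, from -3.65 over a median of -2.12 to -0.92. The share of unnamed probes above 0 was itself 46.4%, 49.4%, 46.7% and 51.0% in pairs 1 to 4. On single arrays that share was 41.2% to 44.6% with Holstein in Cy5 and 53.3% to 55.8% with Jersey in Cy5. Loess centres each array over unnamed and named probes together, so a lean of unnamed probes by themselves is not shown. Pairs 1 and 2 lie on one slide and pairs 3 and 4 on the other, and slide 1 alone gave -3.55 points and slide 2 alone -5.13. With autosomal named probes alone as the comparison, the difference was -5.46 points. Beside this difference stand the values of XIST, the RNA that coats an inactive X chromosome, at -3.22, -3.43, -3.52 and -1.56 in pairs 1 to 4. The part of XIST in the difference was not tested.

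The gap between unnamed and named probes in the share above 0 was larger in brighter probes. In the dimmest of the 10 intensity bins, 58.5% of unnamed probes had a ratio above 0, against 60.0% of named ones. Most probes of both kinds were thus on the Holstein side in that bin. In the brightest bin these shares were 43.3% and 51.5%. An unadjusted p under 0.05 in the Jersey direction was reached by 1.57% of unnamed probes in the dimmest bin, by 14.9% in bin 8, by 18.6% in bin 9 and by 19.7% in bin 10. For named probes the same bins held 1.48%, 8.70%, 12.9% and 12.2%. In the Holstein direction, bin 10 held 10.9% of unnamed and 12.4% of named probes. These p-values come from the same variance prior for all intensities. The median SD between pairs of unnamed probes was 0.13 in bin 1 and 0.33 in bin 10, so shares of different bins are not on equal terms. With an intensity trend in the prior, 778 unnamed probes were higher in Holstein and 1231 in Jersey at an unadjusted p under 0.05. Shares per bin were not computed with that trend.

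**Figure D2:**
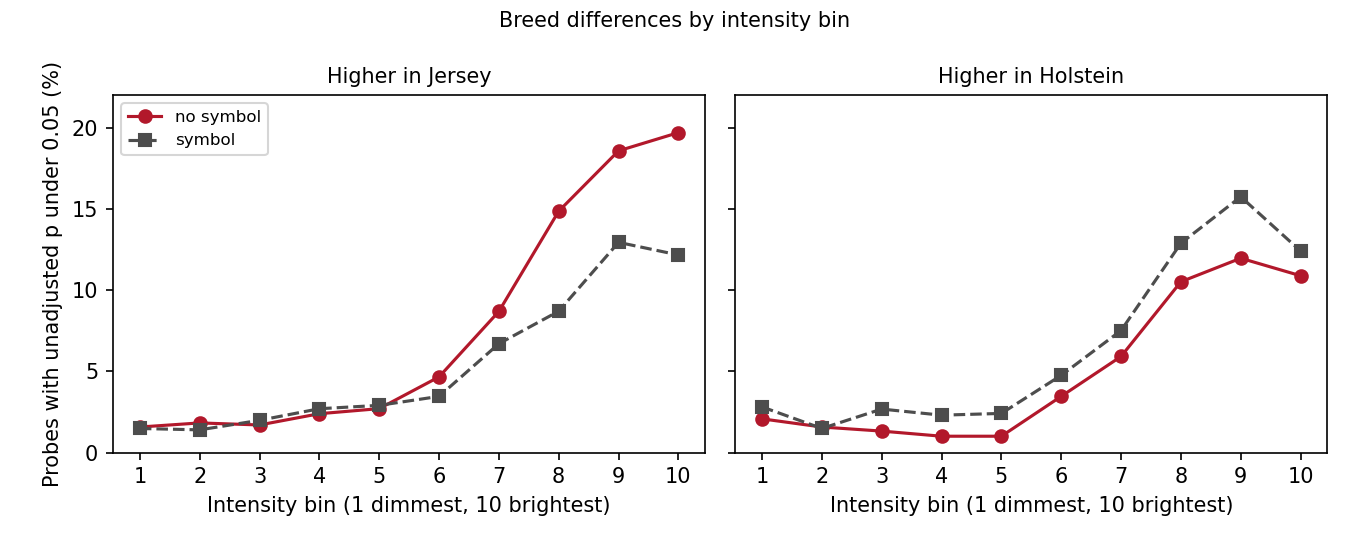
Share of probes with an unadjusted p under 0.05 on pair means (y axis, percent) by intensity bin (x axis, 1 dimmest to 10 brightest), for probes higher in Jersey (left) and in Holstein (right). The variance prior was the same for all bins. Red circles are probes without a symbol and grey squares probes with one; from bin 6 to bin 10 the red line is above the grey one at left and below it at right.

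More unnamed probes had a mean log2 ratio below -1 than above 1. A mean log2 ratio below -1 was found for 129 unnamed probes, 0.812%, beside 0.593% of all probes and 0.284% of matched named ones. A mean above 1 was found for 14, or 0.0881%, beside 0.115% of all probes. These counts include probes near background in 1 breed. Among unnamed probes above background in both breeds on all 8 arrays, 120 were below -1 and 6 above 1. Named probes were not counted in that way. Pair 4 had the fewest probes above 1 among unnamed and named probes alike. For unnamed probes, the count above 1 was 68 without pair 4 and 16 to 21 without 1 of the others. Their count below -1 stayed between 115 and 172 when 1 pair was left out. Shares over all probes were not computed with pairs left out. In single pairs, 182 to 392 unnamed probes were below -1 and 87 to 176 above 1. Among the 17137 named probes tested, these counts were 166 to 403 and 144 to 319.

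Within the brightest bin, at an average log2 intensity above 10.53, 78 of 1590 unnamed probes had a mean ratio below -1 and 2 had one above 1. Among the 2895 named probes of that bin, 22 were below -1 and 5 above 1. The 78 probes were singled out after their values were seen, so the values that follow are a description with no test. Their median ratio was -1.03 in pair 1, -2.21 in pair 2, -1.36 in pair 3 and -1.68 in pair 4. All 78 were below 0 in pairs 2 and 3, 76 in pair 1 and 75 in pair 4. Every one of them was above background in all 16 channels, none was saturated, and 70 were below 0 on all 8 arrays. The mean ratio ran from -2.19 to -1.01, and 62 remained below -1 when pair 2 was left out. Their median dye effect was -0.08. The dye test was passed by 4 of the 78, beside 17.3% of all tested probes and 19.7% of unnamed ones.

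Many of these bright probes shared 1 profile over the pairs. In 35 of the 78 the ratio was lowest in pair 2, followed by pairs 4, 3 and 1. Their medians were -1.01, -2.33, -1.38 and -1.84 in pairs 1 to 4, and the SD over the 35 probes was 0.22 to 0.26 in a pair, against 0.45 to 0.64 over all 78. Choosing probes by a shared order narrows this spread in itself. The commonest order among the 22 bright named probes below -1 was shared by 3 of them. Over all detected probes, the order of those 35 was held by 5.54% of unnamed and 4.83% of named probes. Probes of 1 transcript or 1 repeat family share their source and are not independent measurements. Whether the 35 probes share a target was not tested.

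**Figure D3:**
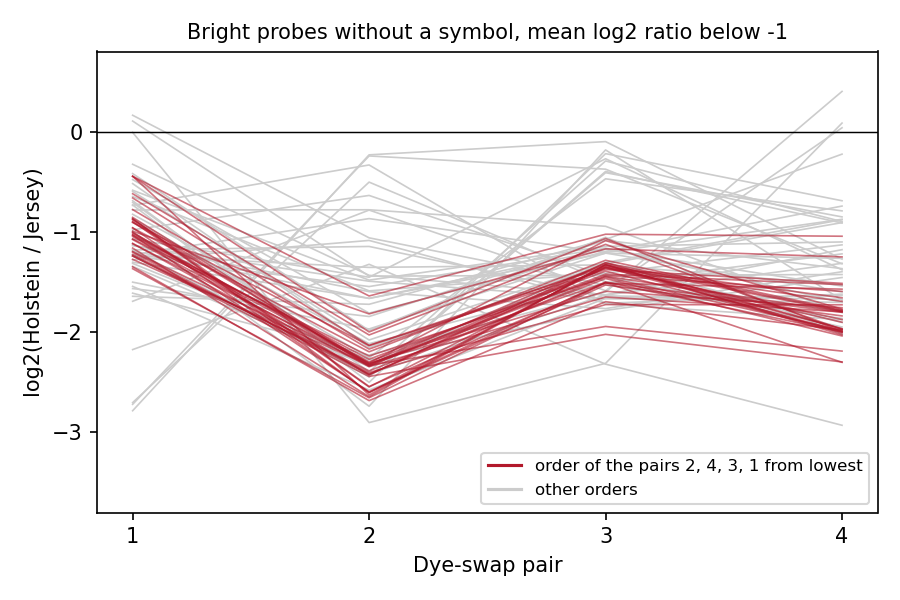
log2(Holstein / Jersey) (y axis) in each of the 4 dye-swap pairs (x axis) for the 78 bright probes without a symbol whose mean ratio was below -1, with 1 line per probe. Red lines are the 35 probes whose pairs rank 2, 4, 3, 1 from the lowest, with medians of -2.33 in pair 2 and -1.01 in pair 1, and grey lines are the other probes.

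Among unnamed probes higher in Jersey, the smallest p belonged to EMBV3_31429. Its log2 ratio was -1.15, -1.21, -1.15 and -1.15 in pairs 1 to 4, so the pairs differed by little, and on single arrays it ran from -1.36 over -1.19 to -0.95. The mean was -1.17 ± 0.06 (moderated SE of limma, n = 4 pairs), 2.24-fold higher in Jersey. This SE, given with every mean ratio, draws on the variance of all probes and is not that of the 4 pair values alone. The SD between the pairs of EMBV3_31429 was 0.03. Its limma adjusted p was 0.0662 on pair means and 0.000373 with the random block. With an intensity trend in the variance prior of the pair-mean fit it was 0.244. EMBV3_00309 gave -1.23, -1.35, -1.33 and -1.53, a mean of -1.36 ± 0.08. EMBV3_01466 gave -1.75, -1.71, -1.59 and -2.28, a mean of -1.83 ± 0.13, or 3.56-fold. All 4 pairs of each probe lay on the Jersey side, and so did all 8 arrays. EMBV3_11356, at -1.16 ± 0.08, and EMBV3_05660, at -1.36 ± 0.10, complete the 5 smallest p in this direction. EMBV3_05660 also differed between dyes, by -0.56 on the log2 scale for Cy5 over Cy3, with a limma adjusted p of 0.0119, and EMBV3_00309 by 0.34, with one of 0.0284. A dye effect cancels in the mean of a pair.

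The unnamed probes of largest mean ratio toward Jersey, among those above background in both breeds on all 8 arrays, were bright. EMBV3_27371 had log2 ratios of -2.17, -1.32, -2.32 and -2.93 in pairs 1 to 4, with a mean of -2.19 ± 0.26, 4.55-fold. EMBV3_16445 had -1.24, -2.44, -2.02 and -2.30, with a mean of -2.00 ± 0.21, 4.00-fold. EMBV3_11684 had -1.37, -2.66, -1.50 and -2.30, with a mean of -1.96 ± 0.24, 3.88-fold. All arrays were below 0 for these 3 probes. The limma adjusted p on pair means was 0.0846 to 0.0882, and with the random block 0.00111 to 0.00153. With an intensity trend in the variance prior of the pair-mean fit it was 0.606 to 0.801.

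On the Holstein side, EMBV3_28260 had the smallest p among unnamed probes and was also among those detected most unevenly. Its log2 ratio was 2.24, 1.53, 2.40 and 1.94 in pairs 1 to 4, and from 1.20 over 2.12 to 2.70 on single arrays, all above 0. It was above background on 8 arrays for Holstein and on 1 for Jersey. Its log2 level was 9.05 ± 0.34 (SD, n = 4 pairs) in Holstein and 7.03 ± 0.33 in Jersey. The mean ratio was 2.03 ± 0.16. It is set against a breed that was mostly not above background, and the probe passed the filter through Holstein, so its size and p are given no weight here.

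The other 4 Holstein-side probes of smallest p had smaller ratios. EMBV3_17530 gave 1.00, 0.85, 0.72 and 0.90, a mean of 0.87 ± 0.07. EMBV3_25621 gave 0.76, 0.79, 0.72 and 0.61, a mean of 0.72 ± 0.07. EMBV3_40787 had a mean of 0.68 ± 0.06 and EMBV3_12410 of 0.76 ± 0.07. All 4 had an adjusted p of 0.0732 with limma on pair means, or 0.244 with an intensity trend in the variance prior. Their arrays were all above 0. EMBV3_17530 was above background on 8 arrays for Holstein and on 4 for Jersey, and the other 3 on all 8 for both breeds.

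**Figure D4:**
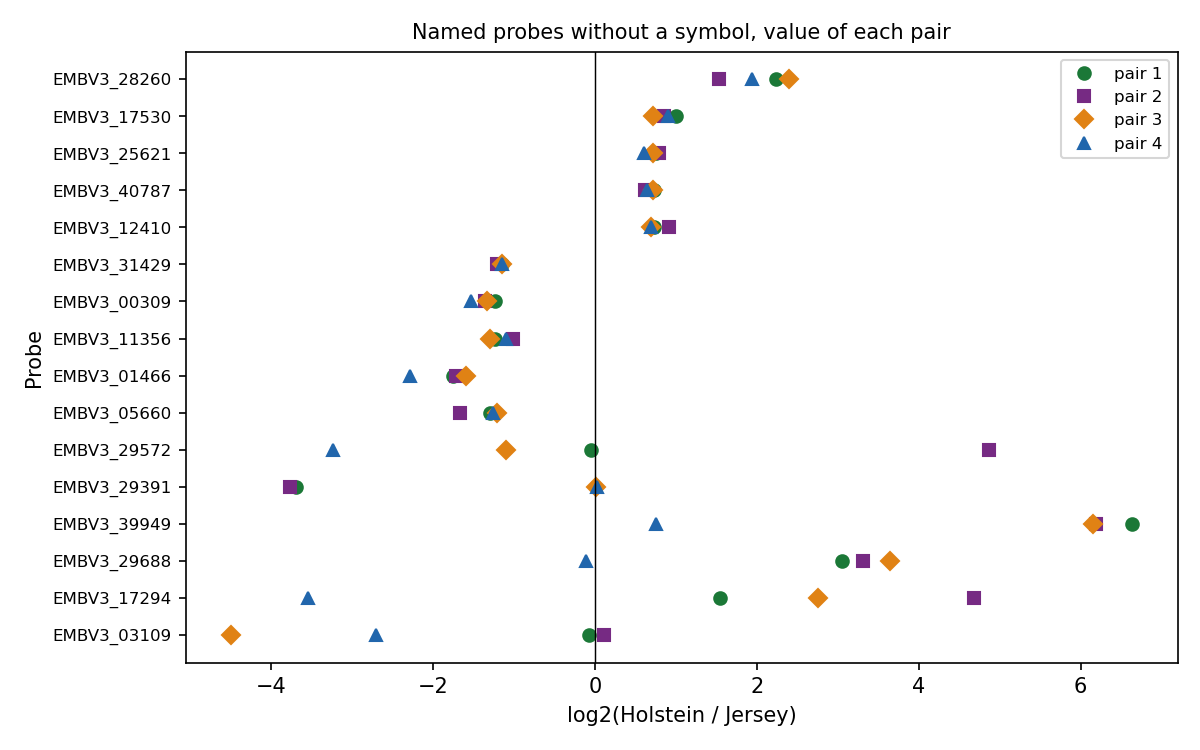
log2(Holstein / Jersey) (x axis) of single probes without a symbol (y axis), with 1 mark per dye-swap pair. The upper 10 probes, chosen for smallest p, keep their 4 pairs on one side of 0. The lower 6, chosen for a large slide difference, ratio or range, hold pairs that stand far apart, such as 0.75 against 6.16 to 6.64 in EMBV3_39949. This contrast follows from how the probes were chosen.

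Unnamed probes of large Holstein ratio in both breeds' detected range varied more between pairs. EMBV3_06258 had log2 ratios of 1.46, -0.57, 3.38 and 1.13, with a mean of 1.35 ± 0.61, so pair 2 lay on the other side. Its mean was 0.67 without pair 3. EMBV3_24188 had 1.53, 2.21, 1.44 and -0.35, with a mean of 1.21 ± 0.42, and pair 4 lay on the other side. EMBV3_03138 had 0.66, 1.02, 2.30 and 1.36, all on the Holstein side, with a mean of 1.34 ± 0.27. Their limma adjusted p on pair means was 0.166 to 0.426.

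A few unnamed probes were detected in nearly 1 breed alone. EMBV3_37511, above background on 8 arrays for Holstein and on 1 for Jersey, had a mean log2 ratio of 0.88 ± 0.17. EMBV3_06448 and EMBV3_04227 were above background on 8 arrays for Jersey and on 1 for Holstein. The log2 ratio of EMBV3_06448 was -1.71, -1.36, -1.57 and -0.36, so pair 4 was nearest to 0, with a mean of -1.25 ± 0.24. EMBV3_04227 had -0.85, -0.84, -1.07 and -0.36, with a mean of -0.78 ± 0.13. Each of these 3 probes passed the filter through the breed in which it was high, so the ratios are set against background and carry no test here. Detection for one breed on at least 4 more arrays than for the other was found for 60 unnamed probes in favour of Holstein and 102 in favour of Jersey, 0.273% and 0.464% of them. For named probes these shares were 0.285% and 0.436%.

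Some unnamed probes differed widely between samples of 1 breed. Between the lowest and the highest pair, the log2 ratio spanned more than 3 in 52 unnamed and 61 named probes. These were 0.327% of unnamed and 0.356% of named probes, or 0.259% of named ones at matched intensity. EMBV3_39949 was named after its values were seen, for the largest mean ratio among unnamed probes. Its log2 level in Holstein was 13.18, 13.21, 12.85 and 12.62 in pairs 1 to 4, and in Jersey 6.54, 7.01, 6.70 and 11.87. Holstein samples were high throughout, and the Jersey sample of pair 4 alone was high. The log2 ratio was therefore 6.64, 6.20, 6.16 and 0.75, with a mean of 4.94 ± 1.06, and 6.33 without pair 4. The SD between its pairs was 2.80. Jersey was above background on 3 of the 8 arrays, so the ratios of pairs 1 to 3 are set against signals near background and are given as a description.

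EMBV3_29688, also named after its values were seen, showed the same sample standing apart. Its log2 level in Holstein was 10.31, 10.54, 10.88 and 9.77, and in Jersey 7.26, 7.23, 7.24 and 9.89, so the Jersey sample of pair 4 was again the high one. The mean ratio was 2.47 ± 0.66, and 3.33 without pair 4. EMBV3_17294 had Jersey levels of 7.06, 7.38, 8.53 and 11.16, and its Holstein levels of 8.61, 12.07, 11.28 and 7.61 varied as well. Its log2 ratio of 1.55, 4.69, 2.75 and -3.55 crossed 0, with an SD of 3.52 between the pairs. Its mean was 1.36 ± 1.33, or 0.25 without pair 2, 0.90 without pair 3 and 3.00 without pair 4.

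EMBV3_03109, the last probe named after its values were seen, was above background on 4 arrays for Jersey and on 0 for Holstein. Its log2 level in Jersey was 6.65, 6.53, 10.93 and 9.59, so only the samples of slide 2 were high, and in Holstein 6.58, 6.64, 6.43 and 6.89. Since Holstein was not well above background on any array, and Jersey was above it on 4 of 8, no fold is given.

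Differences between the slides were not called for any unnamed probe on pair means. The slide test of limma passed 0% of all probes, and 573 unnamed probes had an unadjusted p under 0.05 in it, 3.61% against 3.68% of matched named ones. The fit with the pair as a random block called 5 unnamed probes, and its calls among all probes were not counted. Among the 5 was EMBV3_29391, whose log2 ratio was -3.69 and -3.77 in the pairs of slide 1 and 0.02 and 0.03 in those of slide 2. Its log2 level in Jersey was 11.37 and 11.14 on slide 1 and 7.34 and 7.23 on slide 2, while Holstein stayed at 7.26 to 7.67. The adjusted p of the slide difference was 0.184 on pair means and 4e-05 with the random block.

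Haemoglobin genes, which mark red blood cells, had ratios that differed between the same slides. The log2 ratio of HBG was -4.22, -3.84, 0.13 and 0.16 in pairs 1 to 4, that of HBB was -2.24, -1.79, -0.02 and 0.05, and that of HBA was -1.12, -0.80, -0.04 and -0.43. All 3 were lower in both pairs of slide 1 than in those of slide 2, as EMBV3_29391 was, and their part in its values was not tested. The largest slide difference was that of EMBV3_29572, with ratios of -0.05, 4.86, -1.10 and -3.23. Its pairs of slide 1 alone lay as far apart as -0.05 and 4.86. Levels of that probe were high in 2 Holstein samples, 12.15 and 11.76 in pairs 2 and 3, and in 2 Jersey samples, 12.86 and 10.64 in pairs 3 and 4.

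The dye test passed a larger share of unnamed than of matched named probes. Fitted on 8 arrays, the dye effect passed an adjusted p of 0.05 in limma for 3123 of 15893 unnamed probes, 19.7%, beside 17.3% of all probes and 17.1% of matched named ones. Of the 3123, 1865 were brighter in Cy3 and 1258 in Cy5. The split was similar among the 2596 named probes that passed, with 1561 brighter in Cy3 and 1035 in Cy5. The largest effects among probes above background in all channels were those of EMBV3_03786, at -1.38 for Cy5 over Cy3, and EMBV3_14016, at -1.24. On single arrays the log2(Holstein / Jersey) of EMBV3_03786 ran from -1.55 to 1.65 with the dye orientation, whereas its pair means were -0.41, 0.19, -0.04 and 0.21. As background, the labelling chemistry binds guanine.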

How the data were processed

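Intensities of 8 two-colour arrays were used as the authors deposited them: raw intensity of foreground and local background per spot in Cy3 and Cy5, per the file headers, and 1 mark of the kind other for ignored spots, set on 131 spots. The deposited value table holds log2 ratios whose steps the authors do not state. It correlated at -0.98 to -0.97 with log2(Holstein / Jersey) on the 8 arrays, so it is Jersey over Holstein, and it served as an alternative. All its columns were assigned to an array, leaving 0 over. The scanner and its software are not given in the sources used here. PicoPure extraction, T7 amplification and ULS labelling are given in the labels' protocols.

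Values were recomputed in R 4.3.3 with limma 3.58.1: normexp background correction (offset 50), loess within arrays (weight 0 for controls and ignored spots), and a filter at the mean plus 2 SD of 153 negative control spots, which left out 10764 probes. An ignored negative control spot on array 7 was left out of the threshold. Levels per breed come from the same values after Aquantile between arrays. Which arrays are dye swaps of each other is not in the labels. The matching with the highest residual correlations of 24 was taken (0.45 to 0.71 within pairs, -0.35 to -0.02 otherwise). Since it was chosen by these correlations, they are no test of the pairing. The log2(Holstein / Jersey) values of each pair were averaged, and the 4 means tested against 0 by lmFit and eBayes. SEs were moderated, with the same variance prior for all intensities. The p-values were adjusted by Benjamini-Hochberg over all 33030 probes. Beside this test stands a fit to the 8 single arrays, with dye as a term and pairs as a random replicate block (consensus correlation 0.30). The procedure was tested on simulated data.

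Probes were named by a rule: the 5 smallest p in each direction, the 3 largest ratios in each direction among probes detected throughout, the 2 most unevenly detected for each breed, the 4 brightest, and the 2 largest dye and slide differences. EMBV3_39949, EMBV3_29688, EMBV3_17294 and EMBV3_03109 were added to the named probes once their values had been seen. The probes, lists and tests were chosen with earlier results of these data known. Alternatives changed background correction, normalization, the dim filter, pairing, slide, variance prior, data source, bins and pairs left out.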

Additional observations from a re-analysis of the deposited data

Results flagged for a closer look

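In 5 of the 31 named probes, 1 pair stood apart from the other 3 by more than Dixon's 95% limit for 4 values, which chance passes in about 1 in 20 groups. EMBV3_39949 and EMBV3_29688 were added to the named probes with these values in view, so the count is not to be read against chance. For EMBV3_39949 it was pair 4, at a log2 ratio of 0.75 against 6.16 in the nearest pair. For EMBV3_29688 it was also pair 4, at -0.12 against 3.05. The saturated probe EMBV3_39761 had -0.17 in pair 4 against -0.04. For EMBV3_14016, the probe of large dye effect, it was pair 1, at -0.49 against -0.04. For EMBV3_31429 it was pair 2, at -1.21 against -1.15, where all 4 pairs lay close together.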

How the results depend on the processing

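No unnamed probe passed the adjusted threshold under the alternatives tried, with these exceptions. The count was 24 of the 6185 unnamed probes detected in all 16 channels, where 15021 probes were tested in place of 33030. It was 553 with the pair as a random replicate block, and 894 of 15893 with 8 arrays and no replicate block. When 1 pair was left out it was 0 to 1. The 1 was EMBV3_39949 without pair 4, whose Jersey levels in the remaining pairs were near background. Calls among all probes were counted for the random block alone, so the other counts are not a trait of unnamed probes. At an unadjusted p under 0.05 the count was 1252 of the 6185 unnamed probes detected in all 16 channels. The count of means above 1 was 9 without background subtraction, 28 with offset 16, 23 with median centring, 6 among probes above background throughout, 81 on slide 1 alone, 32 on slide 2 alone, and 16 to 68 when 1 pair was left out. Below -1 it was 219 on slide 1 alone. The difference in the share higher in Holstein was below 0 under all 21 alternatives, from -7.60 points among probes above background throughout to -3.55. Detection in at least 1 breed was 63.3% at 3 SD, 77.2% at the 95th percentile of negative controls and 35.7% when all 8 arrays had to pass. The median level was 8.27 without background subtraction. With the pair as a random replicate block, the dye test called 4809 unnamed probes and the slide test 5. Calls of these 2 fits among all probes were not counted. EMBV3_17294 had a mean of -0.40 on slide 2 alone and EMBV3_03109 one of 0.0218 on slide 1 alone, on the other side of 0. With the ignored negative control spot kept in the threshold, chosen after seeing the data, 15385 unnamed probes were detected and 0 passed. The cause of these changes was not tested. With median centring, 945 unnamed probes were higher in Holstein and 897 in Jersey at an unadjusted p under 0.05, against 790 and 1218 with loess.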
